A study of Rattus norvegicus with 17 samples.

Results

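Matrix metalloproteinases and Timp1 were followed as 6 genes of the rat spinal cord after spinal cord injury (SCI), stimulation of the nucleus raphe magnus (NRM) and pimozide. The 6 were Timp1 (ENSRNOG00000010208), Mmp12 (ENSRNOG00000030187), Mmp3 (ENSRNOG00000032626), Mmp2 (ENSRNOG00000016695), Mmp9 (ENSRNOG00000017539) and Mmp13 (ENSRNOG00000008478), of 32494 genes in the deposited count table. They were selected on measured levels of the same rats in groups A, B and C, with the levels of all 5 groups known. The choice sets members of the family that were higher after injury beside Mmp13, which the study reported as raised by stimulation after injury. Levels in the contrasts of injury alone and of stimulation after injury are therefore a description and carry no test. All 6 were among the 15460 genes that passed the filter on low counts, Mmp12 and Mmp3 only through the injured groups.

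RNA was sequenced from 17 rats, female Sprague-Dawley of 10 to 12 weeks by the study's methods (its keywords name Brown Norway), in 5 groups, and an electrode was placed in the NRM of all of them. The NRM is a midline cell group of the lower brainstem whose serotonergic axons descend to the cord. Group A (4 rats) had sham injury, a laminectomy without contusion, and sham stimulation. Group B (3 rats) had a moderate contusion at T8 and sham stimulation, 3 days after the injury. Group C (3 rats) had the same injury and 2 h of NRM stimulation on day 3. Group D (2 rats) was treated as group C and was given pimozide, which blocks 5-HT7 and D2 receptors, at 1 mg/kg, 1 h before stimulation. Group E (5 rats) had sham injury and stimulation. For group E the sample titles and the study's methods call the rats stimulated whereas the treatment labels call them unstimulated, and they were analyzed as stimulated. Cervical, thoracic and lumbar blocks of a cord, with the pia-arachnoid, were combined, so that a level averages the lesion with the cord above and below it. In such tissue, fewer cells of a type and less RNA per cell cannot be told apart.

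Matrix metalloproteinases are zinc-dependent proteases that are secreted or held at the cell surface and cut collagens, elastin, proteoglycans, basement membrane and many signaling proteins. They are made as inactive proenzymes, and tissue inhibitors of metalloproteinases (TIMPs) block the active enzymes by binding to the catalytic site. In the injured cord the family is known for opening the blood-spinal cord barrier, for the entry of leukocytes and, later, for wound healing and remodeling of the scar. Timp1 codes for a secreted inhibitor, Mmp2 and Mmp9 for gelatinases, Mmp3 for stromelysin-1, Mmp12 for macrophage elastase and Mmp13 for collagenase-3.

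Counts on genes ranged from 9852873 to 14137717 per rat, with TMM factors of 0.966 to 1.05. Values below are CPM after TMM scaling, which are counts per 1000000 of the scaled total of a rat, so that 1 CPM rests on some 10 counts. No gene lengths were used, and levels were compared between rats and not between genes. None of the 10 spinal cord markers that had been listed could be matched to an identifier, and the tissue was not checked against them.

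Mmp13, Mmp12 and Mmp3 lie in a single cluster of metalloproteinase genes on chromosome 8 of the rat. In the RefSeq annotation of GRCr8 the order there was Mmp13, Mmp12, Mmp1b, Mmp3, Mmp1, Mmp10, Mmp8, Mmp27, Mmp20 and Mmp7, with 2 pseudogenes in between. Mmp9 lay on chromosome 3, Mmp2 on chromosome 19 and Timp1 on chromosome X. The promoters of 4 of the 6 genes were in the RefSeq table, and the 120 bases before each annotated start are shown because AP-1 elements of this kind are the known shared feature of inducible metalloproteinase promoters. Capitals mark an AP-1 match (TGAGTCA on either strand, which reads TGACTCA on the other) or, in Timp1, the variant TGAGTAA. The sequences run 5′ to 3′ on the strand of the gene. The window of Mmp13 was chr8:12782709-12782828 (+), that of Mmp12 chr8:12866532-12866651 (+), that of Mmp3 chr8:12925161-12925280 (+) and that of Timp1 chrX:3771123-3771242 (-), in GRCr8, which is not the build of the counts.
Mmp13: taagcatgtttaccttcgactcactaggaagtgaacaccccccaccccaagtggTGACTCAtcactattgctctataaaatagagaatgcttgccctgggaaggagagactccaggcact
Mmp12: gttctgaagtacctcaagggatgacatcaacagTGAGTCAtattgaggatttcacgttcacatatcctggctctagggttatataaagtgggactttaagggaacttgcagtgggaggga
Mmp3: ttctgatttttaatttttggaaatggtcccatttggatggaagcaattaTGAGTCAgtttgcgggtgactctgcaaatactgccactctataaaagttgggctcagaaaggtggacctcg
Timp1: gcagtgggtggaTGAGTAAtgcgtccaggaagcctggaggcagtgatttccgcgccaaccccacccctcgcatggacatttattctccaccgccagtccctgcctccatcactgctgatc

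The AP-1 match began 66 bases before the start in Mmp13, 87 in Mmp12 and 71 in Mmp3. Over the 250 bases before the start, TGAGTCA was found on either strand in 4.05% of 33469 promoters, and the looser TGANTCA, which contains it, in 6.34%. The motif TGAGTAA began 108 bases before the start in Timp1 and 144 in Mmp3, and was present on either strand in 2.38% of promoters. TATAAA on the strand of the gene was present at 47, 39 and 32 bases before the start in Mmp13, Mmp12 and Mmp3, in that order, and in 8.06% of all promoters. TGAGTAA and TATAAA were chosen after the sequences had been seen. A match is a description of the letters. Mmp13 shared the AP-1 and TATAAA matches with its neighbours Mmp12 and Mmp3 but, as given below, not their levels across the groups.

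**Figure D1:**
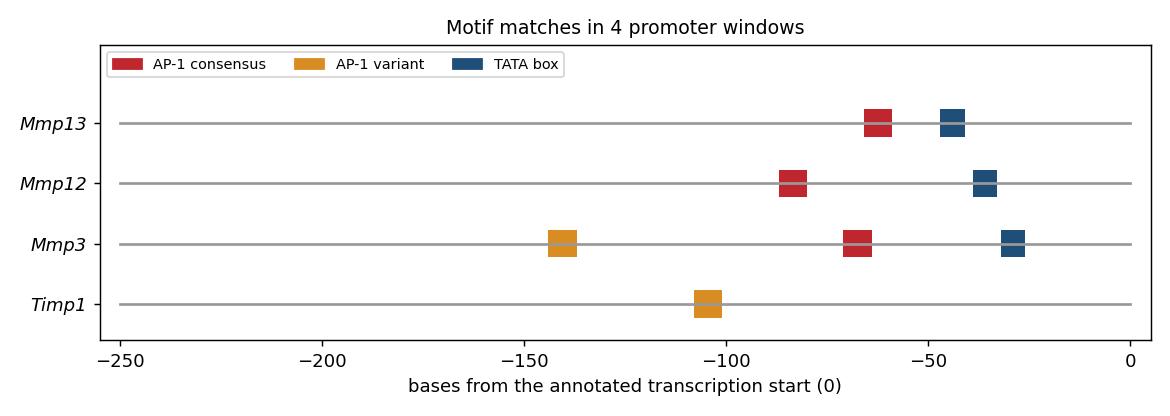
Positions of the motif matches in the 250 bases before the annotated start of 4 genes (x axis, bases from the start; each grey line is 1 promoter and each box 1 match). Mmp13, Mmp12 and Mmp3 each have an AP-1 match followed by a TATAAA match, and Timp1 has the variant TGAGTAA only.

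Timp1, the inhibitor, separated injured from uninjured cords. In group A its level was 9.47, 4.94, 10.4 and 9.86 CPM, and in group E 8.50, 10.2, 7.41, 11.8 and 7.52 CPM. In group B it was 128, 71.4 and 126 CPM, in group C 264, 112 and 77.3 CPM and in group D 89.5 and 171 CPM. Every injured rat was above every uninjured rat, and the 3 injured groups overlapped. The means were 8.68 ± 2.52 (SD, n = 4) in group A, 9.09 ± 1.89 (SD, n = 5) in group E, 108.5 ± 32.1 (SD, n = 3) in group B, 130.2 ± 57.6 (SD, n = 2) in group D and 151 ± 99.4 (SD, n = 3) in group C. Neighbours in that order overlapped except groups E and B. As a description, the log2(FC) of Timp1 was 3.66 (SE 0.39) from group A to B, which is 12.6-fold, and 0.48 (SE 0.36) from group B to C. The difference between groups B and C rested on 1 rat of group C, rat 89, which was the highest of all rats, and was -0.20 without it.

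Mmp12, the elastase of macrophages, was not counted in any of the 9 uninjured rats and was counted in all 8 injured rats. Its level was 8.34, 2.98 and 6.35 CPM in group B (91, 31 and 66 counts), 11.1, 5.24 and 1.13 CPM in group C (128, 57 and 13 counts) and 3.85 and 12.9 CPM in group D (54 and 142 counts). The injured groups overlapped, with means of 5.89 ± 2.71 (SD, n = 3), 5.83 ± 5.02 (SD, n = 3) and 8.37 ± 6.40 (SD, n = 2) in groups B, C and D. Because the uninjured groups were at 0, folds are the injured mean over a floor of 3 counts, summed over the uninjured group. They allow for the 0 counts but not for the spread of the injured rats. In group B Mmp12 was 84.5-fold the floor of group A and was higher in all its rats. In group C it was 118-fold the floor of group E, or 64.8-fold without rat 89. Between groups B and C its log2(FC) was -0.02 (SE 0.70), and it went from -0.90 without rat 89 to 0.49 without rat 93, both of group C.

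Mmp3, a stromelysin that also activates other proenzymes of the family, rested on few reads. Group A had 3, 4, 1 and 5 counts (0.312, 0.313, 0.0949 and 0.493 CPM) and group E had 2, 3, 5, 9 and 7 counts (0.170, 0.234, 0.350, 0.844 and 0.612 CPM). Group B had 15, 11 and 15 counts (1.38, 1.06 and 1.44 CPM), group C 29, 8 and 13 counts (2.52, 0.736 and 1.13 CPM) and group D 15 and 39 counts (1.07 and 3.54 CPM). Groups B and D were above all uninjured rats, whereas the lowest rat of group C fell below the highest of group E. As a description, the log2(FC) was 2.06 (SE 0.62) from group A to B, which is 4.16-fold, and 0.18 (SE 0.54) from group B to C, where it was -0.46 without rat 89 of group C.

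Mmp2, a gelatinase that many resting tissues express, was well counted in uninjured cords and rose less than the members above. In group A it was at 16.0, 11.1, 15.9 and 19.3 CPM and in group E at 14.9, 22.0, 14.6, 21.7 and 18.9 CPM. In group B it was at 50.6, 27.3 and 31.9 CPM, in group C at 56.3, 29.5 and 21.8 CPM and in group D at 32.8 and 53.1 CPM. Groups B and D lay above all uninjured rats, and only rat 93 of group C lay within the range of group E. As a description, the log2(FC) was 1.24 (SE 0.30) from group A to B, which is 2.36-fold, and -0.03 (SE 0.31) from group B to C, with -0.52 without rat 89 of group C and 0.28 without rat 91 of group B.

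Mmp9, the gelatinase that neutrophils carry in their granules, was low in most rats. In group A it was at 0.208, 1.49, 2.56 and 2.27 CPM (2, 19, 27 and 23 counts) and in group E at 0.595, 0.546, 0.699, 2.16 and 0.787 CPM (7, 7, 10, 23 and 9 counts). In group B it was at 2.29, 1.54 and 1.73 CPM, in group C at 5.91, 6.16 and 2.08 CPM and in group D at 2.35 and 2.36 CPM. Groups A and B overlapped, and rats 89 and 90 of group C stood above all other rats while rat 93 of the same group did not. The log2(FC) was 0.18 (SE 0.56) from group A to B and 1.34 (SE 0.55) from group B to C, as a description. From group A to B it was -0.17 without rat 70 and 0.47 without rat 83, both of group A.

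Mmp13, a collagenase of fibrillar collagens that is best known from cartilage and bone, had a different order of the groups. In group A it was at 0.833, 3.29, 5.12 and 1.68 CPM (8, 42, 54 and 17 counts) and in group E at 0.170, 1.48, 0.559, 3.85 and 2.36 CPM (2, 19, 8, 41 and 27 counts). In group B it was at 1.28, 0.0961 and 0.866 CPM (14, 1 and 9 counts), in group C at 9.90, 9.01 and 7.90 CPM (114, 98 and 91 counts) and in group D at 0.570 and 1.45 CPM (8 and 16 counts). The 3 rats of group C were above all other rats and close to each other, with a mean of 8.94 ± 1.00 (SD, n = 3). Groups B, D, E and A followed with means of 0.749 ± 0.602 (SD, n = 3), 1.01 ± 0.624 (SD, n = 2), 1.68 ± 1.48 (SD, n = 5) and 2.73 ± 1.89 (SD, n = 4), in rising order, and each overlapped with the next. The gap between the highest rat of the other groups, at 5.12 CPM in group A, and the lowest of group C was thus smaller than the gap between groups B and C.

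**Figure D2:**
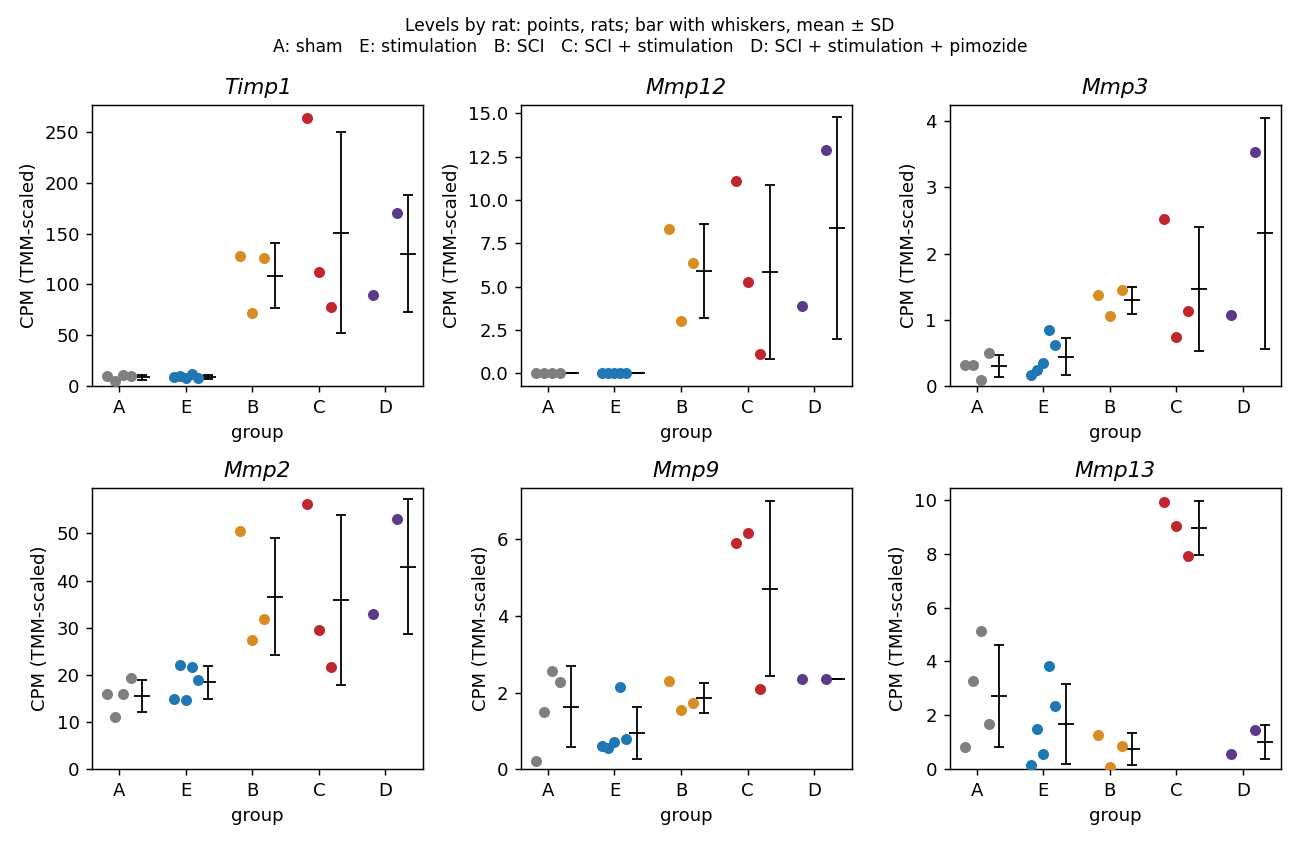
TMM-scaled CPM (y axis) of the 6 genes by group (x axis); points are rats and bars with whiskers are means ± SD. Timp1 and Mmp12 separate the 8 injured rats (B, C and D) from the 9 uninjured rats (A and E), whereas Mmp13 is highest in the 3 rats of group C, at 7.90 to 9.90 CPM.

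The contrasts that picked the members can be set side by side only as values. From group A to B, 4 of the 6 genes (Timp1, Mmp12, Mmp3 and Mmp2) were higher with no overlap of the rats, where 17.4% of all tested genes were, and the rule used this contrast. From group B to C only Mmp13 was higher with no overlap, where 3.21% of all tested genes were, with a log2(FC) of 3.55 (SE 0.79), which is 11.7-fold. The quasi-likelihood test described below called 0 genes from group B to C, so Mmp13 was not called there. The study had flagged it with edgeR's exact test. The log2(FC) of Mmp13 from group B to C ranged from 3.04 to 4.19 when each rat was left out in turn. From group A to B, Mmp13 had a log2(FC) of -1.86 (SE 0.80), and the rats overlapped. It was -2.49 without rat 91 and -1.35 without rat 94, both of group B. Between groups C and A, which share rats with both contrasts, its log2(FC) was 1.69 (SE 0.61).

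Group D was compared with group E, both stimulated, as injured and uninjured rats of neither contrast. The comparison includes pimozide, since no injured group without it was left, and levels in all groups were known when the members were picked, so the p-values are not independent support for a rise with injury. The test was edgeR's quasi-likelihood test, and a call needed both an FDR (Benjamini-Hochberg, over all genes) under 0.05 and a log2(FC) beyond 1 in size. Timp1, Mmp12, Mmp3 and Mmp2 were called, all higher in group D, where 7.28% of all tested genes were called higher and 7.77% in either direction. Mmp12 and Mmp3 passed the filter on low counts only through injured rats. Their adjusted p-values, the count of 4 and the median below are therefore no support for a rise in these genes or in the group as a whole. Without a filter, edgeR called both as well (adjusted p = 1.8e-05 for Mmp12 and 0.0028 for Mmp3). The median log2(FC) was 1.84 over the 6 genes and -0.033 over all genes tested.

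Timp1 rose in group D against E with a log2(FC) of 3.84 (SE 0.37; edgeR adjusted p = 5.0e-06), which is 14.3-fold. The mean of Mmp12 in group D was 170.1-fold the floor of 3 counts in group E (edgeR adjusted p = 0.00091 for the fitted rise). Mmp3 rose with a log2(FC) of 2.36 (SE 0.55; edgeR adjusted p = 0.0053). These 3 rises and that of Mmp2, with a log2(FC) of 1.22 (SE 0.30; edgeR adjusted p = 0.0077), were found in both rats of group D against all 5 rats of group E. The calls of Mmp3 and Mmp2 rested on rat 76 of group D. Without it group D is 1 rat, which the fit assumes to vary like the rats of the other groups. The log2(FC) of Mmp3 was then 1.29 (edgeR adjusted p = 0.38) and that of Mmp2 was 0.84 (edgeR adjusted p = 0.29). Timp1 then had a log2(FC) of 3.30, and Mmp12 in the rat left in group D was 78.2-fold the floor of group E. Both rats of group D came from the rats numbered 69 to 76 in the sample titles, and all but 1 rat of group E from those numbered 82 to 95; what the numbers stand for is not stated. With a term for these number series the log2(FC) of Mmp2 was 1.36 and no longer called (edgeR adjusted p = 0.051).

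Mmp9 and Mmp13 were not called in this comparison. Both rats of group D were above all 5 of group E for Mmp9, as they were for 5 of the 6 genes and for 20.2% of all tested genes, with a log2(FC) of 1.32 (SE 0.59; edgeR adjusted p = 0.11). Mmp9 was called without rat 87 of group E (log2(FC) 1.83, edgeR adjusted p = 0.030), with a term for the number series (2.81, edgeR adjusted p = 0.029) and in edgeR's exact test on groups D and E with total-count scaling (1.36, adjusted p = 0.044). For Mmp13 the log2(FC) was -0.74 (SE 0.86, edgeR adjusted p = 0.56), with a 95% interval of -2.43 to 0.96. It was -1.51 without rat 76 and -0.17 without rat 75, both of group D. With a term for the number series it was 1.53 (SE 1.05), in the other direction.

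**Figure D3:**
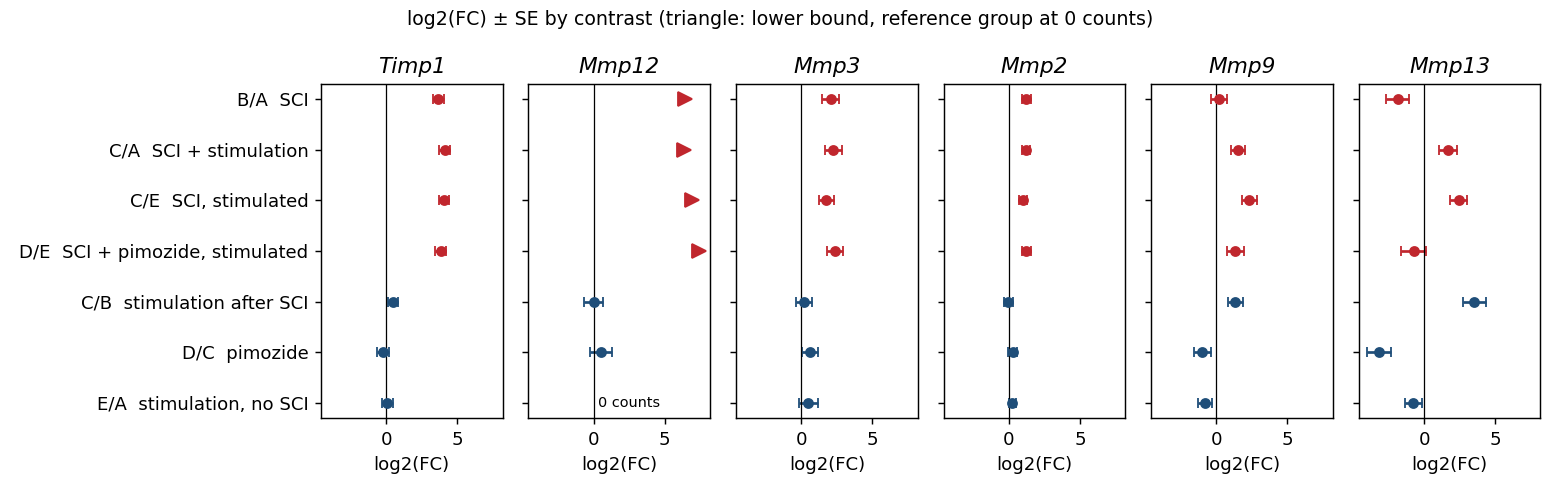
The log2(FC) ± SE of the 6 genes (x axis) in 7 contrasts of groups (rows). Red rows compare injured with uninjured rats, and blue rows stimulation or pimozide. Triangles are the Mmp12 means over a floor of 3 counts where the reference group had 0 counts, without the spread of the injured rats. For Mmp13 the values are 3.55 in C/B and -3.17 in D/C, while for Timp1 those 2 contrasts are at 0.48 and -0.22.

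Stimulation of uninjured rats was compared in groups E and A. Group A also served in picking the members, and the p-values are not independent of that choice. None of the 6 genes was called, and 0% of all tested genes were called in either direction. Mmp12, with 0 counts in both groups, could not be called. Of the other genes 0 were at an unadjusted p under 0.05, where 8.39% of all genes were, so that 0 of so few says little. DESeq2 and edgeR's exact test (with total-count scaling) called 0 of the 6 genes too, and 15 and 25 of all genes. Mmp9 had a log2(FC) of -0.80 (SE 0.52; edgeR adjusted p = 0.71), with a 95% interval of -1.83 to 0.22. Mmp13 had a log2(FC) of -0.75 (SE 0.61; edgeR adjusted p = 0.77), with an interval of -1.93 to 0.44. The interval of Mmp13 ended below its log2(FC) of 3.55 from group B to C, but whether the response to stimulation differed between injured and uninjured rats was not tested, since the contrast of groups C and B picked the gene. Timp1 was at 0.08 (SE 0.38), Mmp2 at 0.24 (SE 0.27) and Mmp3 at 0.50 (SE 0.64), and Mmp12 had 0 counts in both groups.

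Pimozide before stimulation was compared among injured rats in groups D and C. Levels in group C also served in picking the members, and the p-values are not independent of that choice. Of the 5 genes other than Mmp13, 0 were called by edgeR's quasi-likelihood test, by DESeq2 and by edgeR's exact test with total-count scaling, and 0 were at an unadjusted p under 0.05, where 0.0259% of all tested genes were called and 8.86% were at such a p. Mmp9 had a log2(FC) of -0.997 (SE 0.60; edgeR adjusted p = 0.68), with a 95% interval of -2.17 to 0.18. With a term for the number series, which separates groups D and C fully, its log2(FC) was 0.74, in the other direction (edgeR adjusted p = 0.95), and that of Mmp3 was 1.37. Timp1 was at -0.22 (SE 0.40; interval -1.01 to 0.57), Mmp2 at 0.26 (SE 0.34), Mmp12 at 0.51 (SE 0.76) and Mmp3 at 0.62 (SE 0.56). Single rats turned the direction of these 4. Without rat 76 of group D, Mmp2 was at -0.13, Mmp12 at -0.60 and Mmp3 at -0.45. Without rat 89 of group C, Timp1 was at 0.46, Mmp12 at 1.39 and Mmp3 at 1.26, and without rat 75 of group D Timp1 was at 0.18. With 2 rats in group D, the intervals of Mmp9, Mmp12, Mmp3 and Timp1 include changes of over 1 log2 unit.

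For Mmp13 the same contrast is a description, because its level in group C is what set it apart. Both rats of group D, at 0.570 and 1.45 CPM, were below all 3 rats of group C, as were 9.26% of all tested genes, with a log2(FC) of -3.17 (SE 0.88). No rat of group C was numbered 69 to 76 and both rats of group D were. Rat 70 of group A and rat 69 of group E, the other rats of that series, were also the lowest of their groups in Mmp13, at 0.833 and 0.170 CPM. With a term for the number series the log2(FC) of Mmp13 from group C to D was -0.67 (SE 1.17). All rats of groups B and C are of 1 series. With the term the log2(FC) between these 2 groups stayed at 3.55, and its SE went from 0.79 to 0.64. Among injured stimulated rats, pimozide and the number series cannot be told apart.

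Across the 8 injured rats the genes differed in how they varied together, given as Pearson's r on log2(CPM + 0.5) and without a p. Mmp12 varied with Mmp2 (r = 0.92), with Timp1 (r = 0.86) and with Mmp3 (r = 0.69), and Timp1 with Mmp2 (r = 0.86). Rat 89 of group C and rat 76 of group D held the highest and the next place, in either order, for all 4 of these genes, and the lowest 2 places were held by rats 94 and 93 (groups B and C) for Mmp12, Mmp2 and Timp1. Mmp13 varied with Mmp9 (r = 0.78), and its r was -0.01 with Mmp12, 0.04 with Mmp2, 0.04 with Mmp3 and 0.41 with Timp1. Mmp9 was in between, at r = 0.58 with Timp1, 0.36 with Mmp12, 0.32 with Mmp2 and 0.05 with Mmp3. In the 9 uninjured rats Mmp13 and Mmp9 were at r = 0.73 and Mmp2 and Timp1 at r = 0.81. Mmp3 was there at r = 0.11 with Timp1 and 0.45 with Mmp2, against 0.76 for both in the injured rats. All values of a rat come from 1 library, so that the share of lesion tissue in it is common to all of them.

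**Figure D4:**
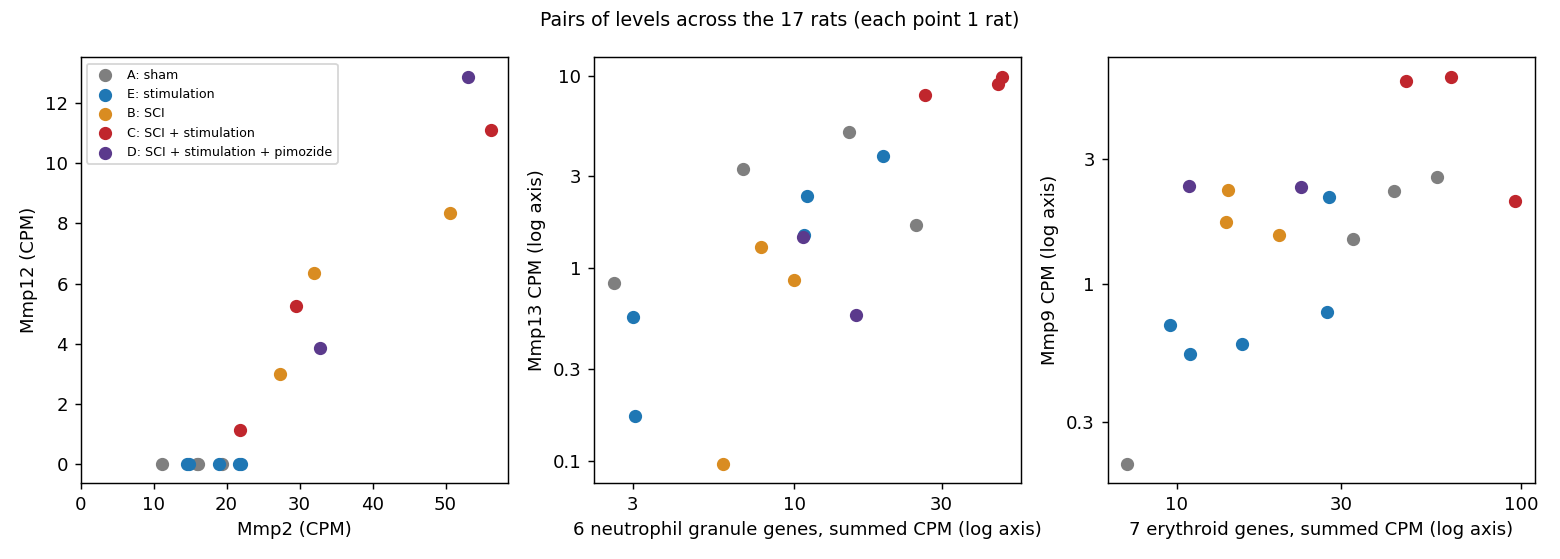
Levels in pairs, 1 point per rat: Mmp12 against Mmp2 (left, linear axes, CPM), Mmp13 against the summed CPM of 6 neutrophil granule genes (middle, log axes) and Mmp9 against that of 7 erythroid genes (right, log axes). Mmp12 is at 0 in the uninjured rats and increases with Mmp2 in the injured rats, and the 3 rats of group C are highest in both Mmp13 and the granule genes.

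Markers of marrow-type cells were summed in each rat, because group C was highest in them as it was in Mmp13. Of the neutrophil granule markers, 6 of 8 could be matched (Mpo, Elane, Ctsg, Camp, Ngp and Fcnb), and of the erythroid precursor markers 7 of 8 (Alas2, Rhag, Slc4a1, Klf1, Hemgn, Ahsp and Epb42). Names were known here only for genes that the study had reported for stimulation or pimozide in injured rats, so the lists are not independent of group C. The summed level of the granule markers was 26.6 to 47.0 CPM in group C, 2.60 to 24.7 in group A, 5.86 to 10.01 in group B, 10.7 to 15.9 in group D and 3.01 to 19.4 in group E. That of the erythroid markers was 46.3 to 96.4 CPM in group C, 7.18 to 57.0 in group A, 13.95 to 19.8 in group B, 10.9 to 22.9 in group D and 9.58 to 27.8 in group E. No more than 2 markers of a list were at 0 counts in any rat. The part of such cells in the levels of Mmp13 and Mmp9 was not tested.

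Correlations with the mean log2 level of a list are given as a description, without a p, since the members and the lists were chosen with these levels known. In all, 32 were computed, and a part of them is given. In the 9 uninjured rats Mmp9 varied with the erythroid markers (Pearson's r = 0.94, Spearman's rho = 0.93). Without the 2 rats farthest from the median, r was 0.94, and within the 7 rats numbered 82 to 88 it was 0.91. For Mmp13 and the erythroid markers r was 0.73, and without the 2 farthest rats 0.63. Within rats 82 to 88 it was 0.71, but -0.0039 without the 2 farthest of them. With the granule markers r was 0.81 for Mmp9 and 0.67 for Mmp13 in the uninjured rats, and 0.70 and 0.47 within rats 82 to 88. For Timp1 and Mmp2 r was 0.43 and 0.54 in the uninjured rats. Within rats 82 to 88 it was 0.63 and 0.54, above the 0.47 of Mmp13. For Mmp3 it was 0.37 and 0.24. In the 8 injured rats the erythroid markers were at r = 0.60 with Mmp9 (rho = 0.26) and 0.82 with Mmp13 (rho = 0.48), and without the 2 farthest rats at 0.80 and 0.65. There the granule markers were at r = 0.90 with Mmp13, 0.86 with Mmp9 and -0.08 with Mmp12. Without the 2 farthest rats these were 0.77, 0.28 and -0.70, so that the values of Mmp9 and Mmp12 rested on those rats. The injured rats pool groups B, C and D, and r there includes the step of group C in Mmp13 and in both lists.

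The genes whose pattern was most like that of Mmp13 over the 17 rats were Nfe2 (Pearson's r = 0.87 on log2(CPM + 0.5)), Hemgn (0.85), Defa5 (0.82) and Ermap (0.82), followed by a gene without a name here (0.82). Nfe2 codes for a transcription factor of the erythroid and megakaryocyte lineages, Hemgn and Ermap for proteins of erythroid cells and Defa5 for a defensin. Within the 8 injured rats they were Nfe2 (0.97), an unnamed gene (0.97), S100a9 (0.94), Defa5 (0.94) and RGD1564883 (0.94), where S100a9 codes for a calcium-binding protein abundant in neutrophils. These values too include the step of group C. Apart from the members, only 99 identifiers could be named here, and unnamed genes were not looked up. For Mmp9 over the 17 rats, Fcnb, a ficolin of neutrophils, came as the gene at place 2 (r = 0.87), and within the 8 injured rats a gene listed as Robo-1 took place 1 (r = 0.97). The other genes at places 1 to 5 for Mmp9 had no names here. The 5 genes most like Timp1, Mmp12, Mmp3 and Mmp2 had no names here, and Timp1 took place 160 of 15459 by its r of 0.97 with Mmp12. Over all 17 rats such values include the step between uninjured and injured cords.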

How the data were processed

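RNA from cervical, thoracic and lumbar cord of 17 rats was combined per rat, with no pooling of rats. The authors trimmed 75-base single-end reads with Trim Galore 0.4.1, aligned them with STAR 2.5.0a and counted reads per Ensembl gene, and they deposited whole-number counts without normalization. The sources differ on the genome build, and the strandedness setting of the counts is not given in the sources used here. Rats were grouped by the letter in their titles, and each was a separate animal. Totals were 9852873 to 14137717 counts per rat. Between rats of a group, chi-square per degree of freedom was 4.39 to 40.5, where counting error gives about 1, so rats set the precision.

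Genes were kept by edgeR's filterByExpr (15460 of 32494) and fitted with glmQLFit in 1 model with a coefficient per group and TMM scaling (R 4.3.3, edgeR 4.0.16). For each contrast glmQLFTest was used and p-values were adjusted by Benjamini-Hochberg over all genes. Calls needed an FDR under 0.05 and a log2(FC) beyond 1 in size, SE is the size of log2(FC) divided by the root of F, and 95% intervals are 1.96 SE. DESeq2 1.42.0, edgeR's exact test with total-count scaling, RLE scaling, total-count scaling of the levels, no filter, a fit of the groups alone, a term for the rats' number series and leaving out each rat were alternatives. Correlations used scipy 1.17.1, pandas 2.3.3 and numpy 2.4.6 under Python 3.11.15, and figures matplotlib 3.10.9. The quasi-likelihood fit was also tested on simulated counts with known changes.

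The members and lists were chosen with earlier results of these data known. The genes named are the 6 members and, by Pearson's r with each, the 5 most like it. Names came from the member list and a supplementary list of the study, which named 99 identifiers. Of 16 marker and family lists, 14 matched 0 genes, so the planned tests of 23 other family genes were not run. The granule list matched 75% and falls short of the 80% set as a minimum for a list, so it is given as a description. Correlations carry no test. Promoters were those of RefSeq (GRCr8), and proteins were not used here.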

Additional observations from a re-analysis of the deposited data

Results flagged for a closer look

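The level of Mmp9 in group E was flagged because 1 rat stood far from the others. Rat 87 was at 2.16 CPM, while the other 4 rats were at 0.546 to 0.787 CPM. Its gap to the nearest rat was 0.850 of the range of the group, above the critical value of 0.710 for 5 rats. Chance flags about 1 in 20 groups of normal values, and levels from low counts need not be normal. The rule was applied to groups A and E for every member with counts in them, and this was the only flag. Rat 87 also had the highest levels of the erythroid markers, at 27.8 CPM summed, and of the granule markers, at 19.4 CPM, in its group, and the highest levels of Mmp13 (3.85 CPM), Mmp3 (0.844 CPM) and Timp1 (11.8 CPM). Whether these go together was not tested.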

How the results depend on the processing

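No called difference of a member turned to the other direction under the alternatives that were run. The genes called among the 6 in group D against E were 4, and 2 to 5 when each rat was left out, with 2 (Mmp12 and Timp1) without rat 76 of group D. Between groups E and A the number was 0 under all alternatives, as it was between groups D and C for the 5 genes without Mmp13. For Mmp13 the contrast of groups D and C is a description only. The exact test was run with total-count scaling here and below. The mean of Mmp9 in group D moved from 2.36 CPM to 2.42 with total-count scaling and 2.37 with RLE scaling, more than its SD of 0.00698, since its 2 rats were nearly equal. Over all genes, those called between groups D and C numbered 4, and 17 without a filter, 1 with a term for the number series, 9 in the fit of the 2 groups alone, 74 in the exact test, 32 in DESeq2 and 0 to 36 when each rat was left out. Between groups E and A the number was 0, and 25 in the exact test, 15 in DESeq2 and 0 to 49 when each rat was left out. Between groups C and B it was 0, and 3 in the fit of the 2 groups and 33 in the exact test. Between groups D and E it was 1202, and 527 to 1874 when each rat was left out. Without rat 89 it was 664 instead of 1103 between groups C and A and 812 instead of 1285 between groups C and E. Apart from smaller samples, the causes were not tested.

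No paired analysis was possible because the rat numbers are unique to each rat and the groups share none. The planned tests of other metalloproteinases and their inhibitors were not run because none could be matched to an identifier. Mmp3, Mmp9 and Mmp13 rest on fewer than 50 counts in most rats, Mmp13 in group B on 1 to 14, far fewer than Timp1 or Mmp2.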
